A study of Homo sapiens with 3 samples.

Results

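Mucin genes code for the heavily O-glycosylated proteins of mucus and of the cell surface. The 10 genes described here fall into 4 secreted, gel-forming mucins (MUC2, MUC5AC, MUC5B and MUC6) and 6 membrane mucins (MUC1, MUC4, MUC12, MUC13, MUC17 and MUC20). They were taken as every array probe whose symbol, brought up to date, is one of these names. Of the 17559 genes with a named probe, 8 were among the 10, carried by 13 probes, and no probe was named for MUC1 or MUC5AC, which were therefore not analysed here. Of these 8 genes, 7 passed the filter on dim probes, which were MUC2, MUC5B and MUC6 of the secreted class and MUC4, MUC12, MUC13 and MUC20 of the membrane class, while MUC17 did not.

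Gel-forming mucins link end to end into the polymer network of mucus. MUC2 is the main one of the healthy colon, where goblet cells store it in granules and release it. Membrane mucins are anchored by a transmembrane segment and form the glycocalyx of the brush border, where MUC12, MUC13 and MUC17 are the chief ones of the intestine. Notch signalling, through the cleaved intracellular domain of the receptor (NICD), keeps intestinal progenitors from the secretory lineage that gives goblet cells. Tumour necrosis factor (TNF) is an inflammatory cytokine that activates NF-kB.

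The cells were LS174T-tetON-NICD, a derivative of the colon carcinoma line LS174T, of human origin, that makes NICD when doxycycline is added. All 3 treated cultures and all controls carried this inducible NICD, so the comparisons include no doxycycline-treated cells without it. One culture received TNF-a at 50 ng/ml, one received doxycycline at 100 ng/ml and one received both, each for 24 h, and each was hybridised in Cy3 on its own 2-colour array against untreated control cells in Cy5. With 1 array per condition, that number limits the precision, and no difference below has a test, an SD or a replicate check. No dyes were swapped, so dye and treatment cannot be told apart. The labels do not say whether the 3 control channels hold RNA of 1 culture or of several, so the comparisons may share their control.

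Signals are given as the intensity of a spot less the mean of the 2680 blank spots of the same array and channel. The limit for calling a signal above background was the 95th percentile of these blanks, which lay 3.17 to 3.33 units over their mean in the control channels and 4.42 to 5.21 units over it in the treated channels. A log2 ratio is the normalised treated over control value, computed after 50 units were added to both channels, so it understates the change of dim probes. The printed signals are from before that step and before normalisation, and their channels are unequally bright. Over the 17009 probes above background in both channels of every array, the median treated signal was 0.942 times the control signal on the TNF array, 1.81 times on the doxycycline array and 1.83 times on the combined array, and the signals of a member are to be read against these medians. A gene was counted as higher or lower at 2-fold or more, a log2 ratio of 1 in either direction. Levels of different probes are not compared, since probes differ in their response.

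The TNF array stood apart from the other 2. Over all 14529 genes, 12.3% were at least 2-fold lower and 1.8% at least 2-fold higher with TNF, and the SD of log2 ratios across genes was 0.83 on it against 0.34 with doxycycline and 0.53 with both. Among genes with several bright probes, the SD between the log2 ratios of probes of 1 gene was 1.19 on the TNF array (197 genes) against 0.261 with doxycycline and 0.252 with both. The control channels differed little from each other, with an SD across genes of the difference between 2 arrays of 0.0833 to 0.142 on the log2 scale. All 5 Notch targets checked were at least 2-fold higher with doxycycline (1.35 to 6.73), against 1.18% of all genes, and all 5 NF-kB targets were with TNF (2.95 to 6.99). With both, 5 of 5 Notch targets (1.00 to 7.82, with a saturated spot at the top) and 4 of 5 NF-kB targets (0.51 to 4.38) were, against 3.17% of all genes. The exception was CXCL8, at 0.51 with both and 5.22 with TNF. Every one of the 10 colon epithelial markers with a probe was above background in all controls. Of the other lineages, 2 of 5 leukocyte markers (CD14 and CSF1R), 2 of 6 fibroblast markers (DCN and LUM) and 3 of 3 endothelial markers (VWF, CDH5 and KDR) were too. In each control channel 19203 to 19427 of all 24460 gene probes were above background, so these counts say little about lineage. The median control signal was 1349 units for the epithelial list. It was 2.26 for the leukocyte, 1.35 for the fibroblast and 9.54 for the endothelial list, where the background limit was 3.17 to 3.33.

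MUC2 and MUC13 were the members that reached 2-fold on any array, and the region just before each gene's start is shown so that the letters in front of both can be compared. Each is 250 bases from RefSeq on GRCh38.p14, written 5′ to 3′ on the gene's strand and ending at the base before the start. The MUC2 stretch is chr11:1074624-1074873 on the plus strand and the MUC13 stretch is chr3:124934752-124935001 on the minus strand. Capitals mark the E-box CANNTG, bound by basic helix-loop-helix factors, and the N-box CACNAG, bound by HES proteins, each searched on both strands.
MUC2: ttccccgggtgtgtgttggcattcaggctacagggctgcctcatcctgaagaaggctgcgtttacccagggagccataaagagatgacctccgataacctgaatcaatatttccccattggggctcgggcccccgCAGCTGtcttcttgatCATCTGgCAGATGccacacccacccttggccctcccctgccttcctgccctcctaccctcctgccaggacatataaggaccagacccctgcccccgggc
MUC13: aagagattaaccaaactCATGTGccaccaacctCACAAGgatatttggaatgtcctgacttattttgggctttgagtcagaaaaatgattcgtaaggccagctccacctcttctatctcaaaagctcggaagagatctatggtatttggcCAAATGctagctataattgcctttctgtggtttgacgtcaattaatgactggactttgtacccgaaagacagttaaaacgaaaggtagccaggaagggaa

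The MUC2 stretch was 59.6% GC and held 3 E-boxes, CAGCTG at -115 to -110, CATCTG at -99 to -94 and CAGATG at -92 to -87, counted from the start of the gene. It held 0 matches to the N-box, 0 to the RBPJ core TGGGAA, the letters that the DNA-binding partner of NICD recognises, and 0 to the NF-kB consensus. The MUC13 stretch was 41.6% GC and held 2 E-boxes, CATGTG at -233 to -228 and CAAATG at -100 to -95, and 1 N-box, CACAAG at -217 to -212. Among 27305 promoter stretches of the same length, 62.2% held an E-box, 32% an N-box, 21.1% the RBPJ core and 5.05% the NF-kB consensus. The motifs do not overlap each other in either stretch. Such matches describe the letters of these windows only.

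Of the secreted mucins, MUC2 was the only 1 of 3 measured genes at least 2-fold from control on any array. MUC6 was too dim for a 2-fold fall to show after the added constant. MUC2 was higher with TNF and lower in both cultures that received doxycycline. On the TNF array the MUC2 probe CHsGV10001371 gave 133 units in the control channel and 425 in the treated channel. On the doxycycline array it gave 112 in the control channel against 19.4 in the treated one. On the combined array the values were 85 and 9.6. The 3 control values lay between the TNF value above them and both doxycycline values below them, and the treated signals stayed over the background limit on all 3 arrays. On the combined array the treated value of 9.6 was close to its limit of 5.21, so how far MUC2 fell there is poorly determined. The probe's treated signal was thus 3.2, 0.173 and 0.113 times its control signal with TNF, doxycycline and both, where the probe medians were 0.942, 1.81 and 1.83.

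After normalisation the MUC2 log2 ratio was 1.28 with TNF (2.43-fold higher), -1.55 with doxycycline (2.92-fold lower) and -1.48 with both (2.79-fold lower). With TNF, 76 of the 14529 genes had a ratio as high or higher. With doxycycline 12 genes, and with both 85 genes, had a ratio as low or lower. In bulk RNA, fewer cells that make MUC2 and less MUC2 RNA per cell cannot be told apart.

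MUC2's control channel was among the least even of all genes. Its normalised control levels were 7.84, 7.52 and 7.23 on the log2 scale on the TNF, doxycycline and combined arrays, a range of 0.61, and 0.743% of genes had a range as large. The median range over all genes was 0.141. The MUC2 controls follow the same order over the arrays as its treated signals. The control levels of MUC5B, MUC6, MUC12 and MUC20 have this order too, with smaller ranges of 0.05 to 0.21, so the order is not particular to MUC2. All these levels come from a normalisation that uses both channels. The part the control order plays in the MUC2 ratios was not tested. MUC2's control range may hold technical spread only, and its TNF ratio of 1.28 is about as large as the SD of 1.19 between probes of 1 gene on the TNF array. Set against the mean control of the 3 arrays, a comparison chosen after seeing the data, the ratios were 1.59, -1.56 and -1.78.

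The ratio of MUC2 also depends on what is taken as background. The local background that the scanner measured around the MUC2 spot was 79.5 to 96.6% of the spot's own intensity in the controls and 87.1 to 90.1% in the treated channels, against array medians of 65.3 to 74.9% and 66.2 to 72.1%. With that local value subtracted in place of the blanks, MUC2 was at 0.50 with TNF, -0.49 with doxycycline and 0.01 with both, and no longer reached 2-fold on any array. Over all probes the local background followed the spot signal, with a correlation on the log scale of 0.917 to 0.960. In the authors' deposited table, which uses the blanks and adds no constant, the MUC2 log2 ratios are 1.76, -3.39 and -4.05.

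**Figure D1:**
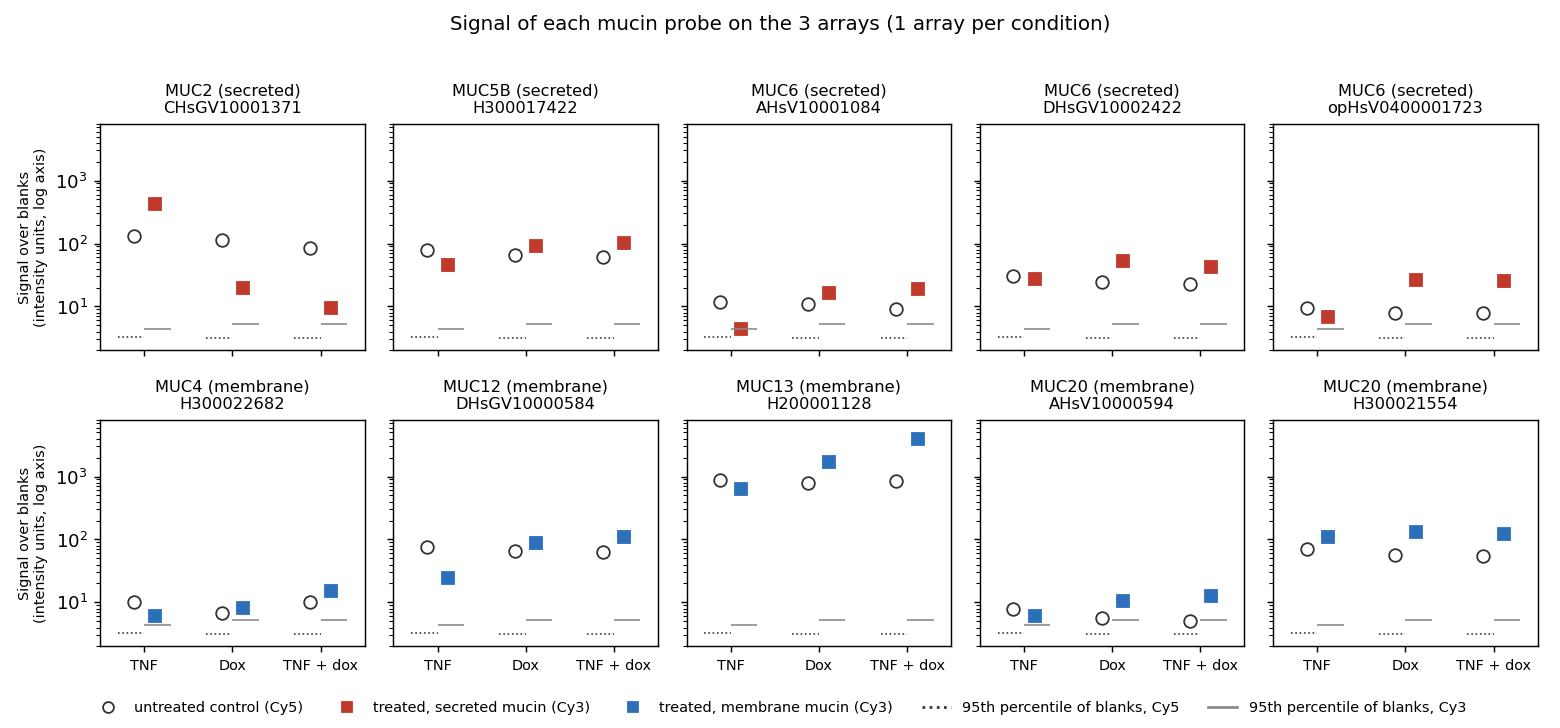
Signal of the 10 mucin probes that passed the filter, in intensity units over the mean of the blanks on a log axis, on the TNF, doxycycline and combined arrays. Open circles are the untreated control (Cy5), filled squares the treated cells (Cy3, red for secreted and blue for membrane mucins) and short lines the 95th percentile of the blanks in each channel. Each point is 1 spot with no error bar, and the channels are not balanced, with a median treated signal 1.81 and 1.83 times the control on the last 2 arrays. The MUC2 square lies above its circle with TNF and below it with doxycycline and with both, and the MUC13 square climbs from 645 to 3893 over the 3 arrays.

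MUC5B, a gel-forming mucin best known from the airways and salivary glands, stayed within 2-fold of control. Its brighter probe H300017422 gave 78.7, 65.7 and 61.6 units in the controls and 44.8, 92.8 and 102 in the treated channels of the TNF, doxycycline and combined arrays. The treated signal lay below the control on the TNF array and above it on the other 2 before normalisation, and the log2 ratios were -0.23, -0.15 and -0.07. The authors' deposited values for this probe, without the added constant, are -0.73, -0.36 and -0.17. The other probe, AHsV10002323, was above background in only 1 of 6 channels, the treated channel of the combined array at 5.8 units, and did not pass the filter.

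MUC6, the gel-forming mucin of gastric glands, was covered by 3 dim probes. Probe DHsGV10002422 gave 30.5, 24.3 and 23 units in the controls and 27.3, 52.2 and 41.9 in the treated channels. Probe opHsV0400001723 gave 9.31, 7.97 and 7.75 in the controls against 6.72, 25.9 and 25. Probe AHsV10001084 gave 11.7, 11 and 9.22 in the controls against 4.39, 16.3 and 19, and its treated channel was not above background on the TNF array. The log2 ratios of these probes ran from -0.13 to 0.16 and the gene's mean was -0.01 with TNF, 0.07 with doxycycline and 0.04 with both. At these signals the ratio is strongly pulled towards 0 by the added constant, and in the authors' deposited table, without it, the 3 probes run from -1.33 to 0.84. In that table all 3 probes are below 0 with TNF, and they differ in sign on the other arrays.

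Of the membrane mucins, MUC13 was the only 1 of 4 measured genes that reached 2-fold from control, and it did so on the combined array. MUC13 is a mucin of the colon's brush border with a short mucin domain and EGF-like domains. Its probe H200001128 gave 892, 780 and 849 units in the controls. In the treated channels it gave 645 with TNF, 1725 with doxycycline and 3893 with both. The treated over control signal was thus 0.723, 2.21 and 4.59, where the probe medians were 0.942, 1.81 and 1.83, so the doxycycline value lay a little above the median of its array.

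The MUC13 log2 ratio was -0.89 with TNF (1.85-fold lower), 0.24 with doxycycline and 1.32 with both (2.5-fold higher). Over the alternative settings it ran from -0.99 to -0.38 with TNF and from 0.10 to 0.75 with doxycycline, with -0.38 in the authors' deposited values and 0.75 with median centring. On the combined array 266 of the 14529 genes had a ratio as high or higher. With doxycycline, 2615 genes were as high or higher. With TNF, 1998 genes were as low or lower, on the array where many genes were low. Its control levels spanned 0.20 on the log2 scale, a range that 36.1% of genes reached or passed. The TNF ratio was smaller than the SD of 1.19 between probes of 1 gene on that array. The local background was 5.87 to 19.2% of the MUC13 spot in all 6 channels, and under the 6 of 10 alternative settings that can alter a gene with 1 bright probe the combined ratio of MUC13 ran from 1.17 to 1.78.

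**Figure D2:**
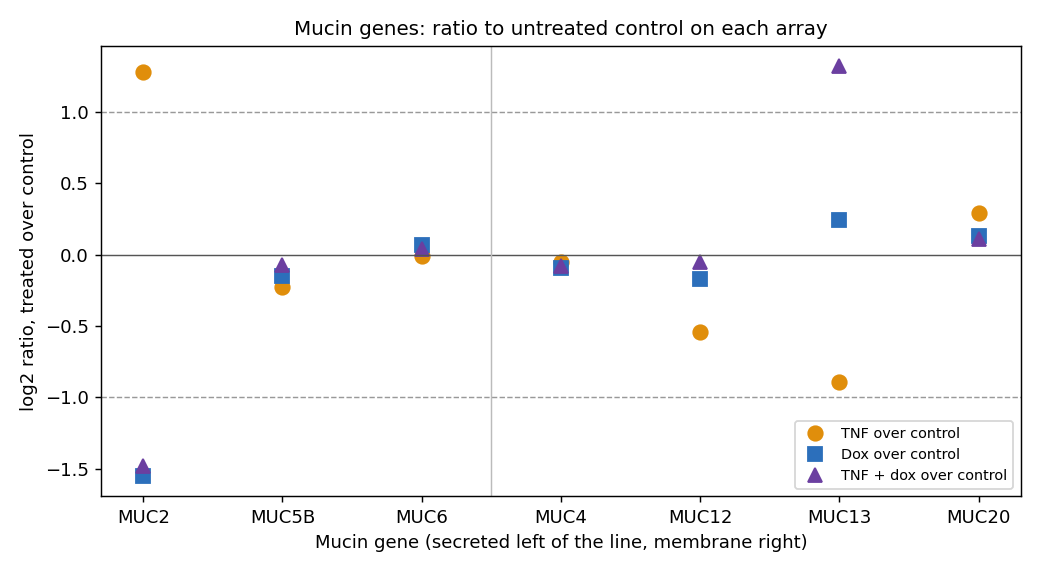
Log2 ratio of treated over control for the 7 mucin genes that passed the filter, after normalisation, for TNF (circles), doxycycline (squares) and both (triangles), with secreted mucins left of the vertical line. Dashed lines mark 2-fold, and each point is 1 array with no error bar. MUC2 lies outside the dashed lines on all 3 arrays and MUC13 on the combined array, while the other 5 genes lie between -0.54 and 0.29.

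MUC12, a large membrane mucin of the colon, was measured by probe DHsGV10000584 at 76.9, 64.8 and 63.7 units in the controls and 24.5, 89.4 and 108 in the treated channels. The log2 ratios were -0.54 with TNF, -0.17 with doxycycline and -0.05 with both. In the authors' deposited table the TNF ratio of this probe is -1.57, past 2-fold, so whether MUC12 counts as lower depends on the added constant and the normalisation. A second probe, CHsGV10001388, was not above background in any channel, with signals from -0.789 to 1.26 units.

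MUC20 was covered by 2 probes that differ. MUC20 is a membrane mucin that binds the receptor MET. Probe H300021554 gave 69.6, 57 and 54.3 units in the controls and 110, 132 and 124 in the treated channels, with log2 ratios of 0.59, 0.28 and 0.20. Probe AHsV10000594, at 7.82, 5.7 and 5.05 in the controls and 6.19, 10.6 and 12.8 in the treated channels, had ratios of -0.01, -0.02 and 0.03. For this dim probe the authors' deposited values, without the added constant, are -0.25, 0.04 and 0.44. The gene's mean was 0.29, 0.13 and 0.11.

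MUC4, a membrane mucin that binds the receptor ERBB2, was close to background. Its probe H300022682 gave 10.2, 6.83 and 10.2 units in the controls and 6.11, 8.29 and 15.2 in the treated channels, with log2 ratios of -0.05, -0.09 and -0.08. At these signals the added constant pulls the ratio strongly towards 0, and the authors' deposited values for this probe are -0.65, -0.58 and -0.32. MUC17, a membrane mucin of the small intestine, had 1 probe (AHsV10002681), and none of its 6 channels was above background, with signals from -3.19 to 4.53 units. No ratio is given for MUC17, and a change in it was not detectable at these signals.

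Counted over the 7 genes that passed the filter, 1 was at least 2-fold higher (MUC2) and 0 were lower with TNF, against 1.8% and 12.3% of all genes. With doxycycline 0 were higher and 1 was lower (MUC2), against 1.18% and 0.406%. With both, 1 was higher (MUC13) and 1 was lower (MUC2), against 3.17% and 2.13%. The median log2 ratio of the 7 was -0.05, -0.09 and -0.05 on these arrays, against -0.01, 0.01 and 0.00 for all genes. The genes called with TNF were 12.8% higher ones by loess, 29.7% by median centring and 38.8% in the authors' deposited values, so the TNF background moves with the processing. By the same 3 routes the share was 74.3%, 96.6% and 72.6% with doxycycline and 59.7%, 87.7% and 60.7% with both. By class, the secreted median was -0.01, -0.15 and -0.07 over 3 genes and the membrane median -0.30, 0.02 and 0.03 over 4 genes. The members passed the filter through a signal in at least 1 channel of every array, so they are not all mucins of the array.

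**Figure D3:**
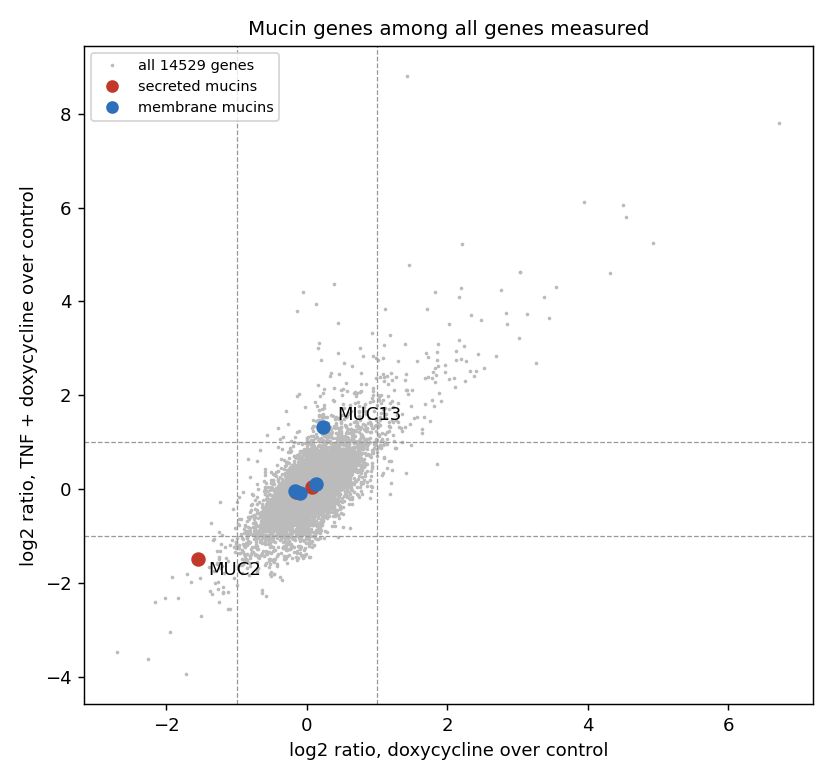
Log2 ratio on the doxycycline array (horizontal axis) against the combined array (vertical axis) for all 14529 genes (grey) and the 7 mucin genes (red for secreted, blue for membrane), with 2-fold lines dashed. Each point is 1 gene on 1 array per axis, and both axes may share a control. MUC2 is at -1.55 and -1.48, beyond 2-fold on both axes, MUC13 is at 0.24 and 1.32, and the other 5 lie near the origin.

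The difference between the combined array and a single-treatment array sets TNF and doxycycline together against one of them. Against doxycycline alone, MUC2 differed by 0.06 and MUC13 by 1.09 (2.12-fold higher). The MUC2 difference has no settled direction, being 0.50 with local background, -0.22 against the mean control and -0.65 in the authors' deposited values. The MUC13 difference was matched or passed by 141 of the 14529 genes. Among the 7 genes 1 was at least 2-fold higher and 0 lower in this difference, against 1.18% and 0.909% of all genes, and the other 5 lay between -0.04 (MUC6) and 0.12 (MUC12).

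Against TNF alone, MUC2 was lower by a log2 difference of -2.76 (6.79-fold), a value that 5 genes of the 14529 reached or passed on the low side, itself included. With local background the MUC2 difference was -0.49, which ends the 2-fold call, and in the authors' deposited values it is -5.81. MUC13 was higher by 2.21 (4.64-fold), as were 562 genes or more strongly so. Among the 7 genes 1 was higher and 1 lower, against 14% and 3.29% of all genes, and the other 5 lay between -0.18 (MUC20) and 0.50 (MUC12). MUC12 passes 2-fold here too in the authors' deposited values. The combined ratio differed from the sum of the 2 single ratios by -1.22 for MUC2 and by 1.98 for MUC13, where the SD across all genes of this quantity was 0.92. A difference as high as that of MUC13 was found for 749 genes and one as low as that of MUC2 for 390. The sum holds the TNF array, and the part of that array in these counts was not tested.

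**Figure D4:**
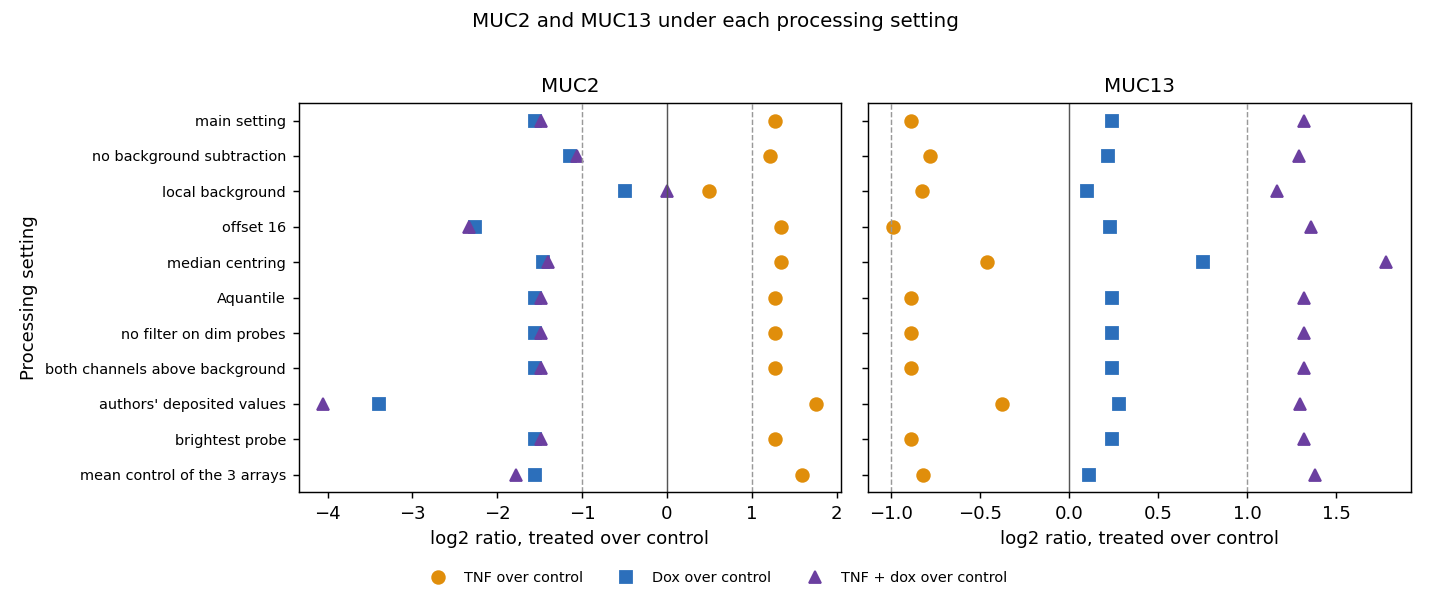
Log2 ratio over control of MUC2 (left) and MUC13 (right) under the main setting and each of 10 alternatives, for TNF (circles), doxycycline (squares) and both (triangles), with 2-fold lines dashed. Each point is 1 array, and the horizontal axes of the panels differ. With local background subtraction the MUC2 points move to 0.50, -0.49 and 0.01, while the MUC13 triangle stays between 1.17 and 1.78.

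The genes whose 3 ratios lay nearest to those of MUC2 were PROC, PLD6 and NUAK2, among 12645 genes with both channels above background on all 3 arrays. Likeness was the Euclidean distance over the 3 log2 ratios. PROC, the anticoagulant protein C, was at 1.23 with TNF, -1.93 with doxycycline and -1.89 with both, a distance of 0.56. PLD6, a mitochondrial phospholipase, was at a distance of 0.70 and NUAK2, a kinase related to AMPK, at 0.72. Nearest to MUC13 were TAP1 at 0.18, MAN2B1 at 0.20 and TENT2 at 0.25. TAP1, a subunit of the peptide transporter of antigen presentation, was at -0.81, 0.07 and 1.30. The distances use 3 arrays only and are a description.

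MUC6, MUC2, MUC5AC and MUC5B lie close together on chromosome 11, and of the 3 measured MUC2 alone reached 2-fold. MUC6, with mean control signals of 13.3 to 17.2 units, was too dim to show a 2-fold fall after the added constant. The 2-fold call therefore cannot tell whether MUC6 fell as MUC2 did. MUC12 and MUC17 are neighbours on chromosome 7, and MUC20 and MUC4 on chromosome 3. MUC13 lies elsewhere on chromosome 3, between ITGB5 and HEG1.

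Of 16 other genes named as mucins or mucin-like, 8 passed the filter and 0 were at least 2-fold higher or lower in any of the 5 comparisons. Over all genes the shares called in 1 direction ran from 0.406% to 14% over these comparisons, so 0 among 8 genes says little. The largest ratios were those of MUC8, at -0.68 with TNF and -0.44 with both, and of MUCL1, a small secreted mucin-like protein, at 0.57 with TNF. CD164, a sialomucin of the endosome and cell surface, was at 0.27, 0.34 and -0.13, and MUC7, the small salivary mucin, at 0.35, 0.14 and 0.06.

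Of 31 enzymes and transporters of mucin O-glycosylation, which build and cap the sugar chains, 25 passed the filter. With TNF 0 were at least 2-fold higher and 6 lower, against 1.8% and 12.3% of all genes. Several of the 6, ST6GALNAC1 among them, had a probe not above background in the treated channel of that array. With doxycycline 0 were higher and 1 lower, against 1.18% and 0.406% of all genes, and with both 2 were higher and 2 lower, against 3.17% and 2.13%. The list's median was -0.07, -0.02 and -0.09. ST3GAL4, a sialyltransferase, gave 206, 191 and 201 units in the controls and 10.2, 451 and 982 in the treated channels, with log2 ratios of -1.81, 0.34 and 1.28. Like MUC13 it was at least 2-fold higher with both, but with TNF it was at least 2-fold lower, which MUC13 was not. FUT2, the secretor fucosyltransferase, was at 0.73 with doxycycline and 1.85 with both, while its treated channel was not above background with TNF. GALNT6, which starts O-glycan chains, was at -2.01, -0.59 and -0.37. ST6GALNAC1, which makes the sialyl-Tn antigen, was at -2.11, -0.32 and -0.48 as the mean of 2 probes, with a probe not above background in the treated channel of the TNF array.

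Of 21 mucus partners and granule genes, 18 passed the filter, and their median was 0.03, 0.05 and -0.00. With doxycycline and with both, 1 was at least 2-fold higher and 1 lower, where 1.18% and 0.406% of all genes were with doxycycline and 3.17% and 2.13% with both. With TNF 0 were either, against 1.8% and 12.3%. TFF1, a trefoil peptide secreted with mucins, was at 0.71 with TNF and 4.94 with doxycycline, and at 5.25 or more with both, where the spot was saturated. SPINK4, a goblet cell protease inhibitor, was lower with doxycycline (-1.16) and with both (-1.24), as MUC2 was, and was at 0.43 with TNF. TFF3, the trefoil peptide of intestinal goblet cells, was at -0.84, 0.01 and -0.09. AGR2, the disulphide isomerase needed for MUC2 folding, was at -0.39, -0.97 and -0.16.

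Of 22 transcription factors known to act on mucin genes, 20 passed the filter. With TNF 0 were at least 2-fold higher and 3 lower, with doxycycline 2 were higher and 0 lower, and with both 4 were higher and 1 lower. The shares of all genes were 1.8% and 12.3% with TNF, 1.18% and 0.406% with doxycycline and 3.17% and 2.13% with both. The median was -0.02, -0.03 and 0.24. HES1 and HES5, repressors switched on by Notch, were at 1.35 and 3.13 with doxycycline and at 1.00 and 3.72 with both. CDX1 and CDX2 are intestinal factors, of which CDX2 is known to activate MUC2. Their ratios were -3.88 and -2.67 with TNF and between -0.29 and 0.21 on the other arrays. Each rests on 1 probe, and on the TNF array the SD between probes of 1 gene was 1.19 and 12.3% of all genes were at least 2-fold lower. CDX1 and CDX2 are also colon epithelial markers, a list of which 4 of 10 were lower by 2-fold or more with TNF, and its part in the mucin ratios was not tested.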

How the data were processed

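Per the file headers, the authors deposited 2-channel scanner tables with the median intensity of each of 27456 spots, combined from scans at several gains, and local background intensity. The authors also deposited log2 ratios, which were matched within 0.001 for all values (18330 on the TNF, 19535 on the doxycycline and 19605 on the combined array) as log2 of treated over control after blank subtraction, centred on the array's median. This settled the direction.

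Here the 5% trimmed mean of the blanks was subtracted. Channels were corrected by normexp (saddle-point, offset 50) and normalised within arrays by loess in limma 3.58.1 (R 4.3.3), with control spots at weight 0. A probe had to exceed the blanks' 95th percentile in 1 or both channels on each array, 3 probes marked bad were dropped, and 16336 probes were averaged to 14529 genes. Of 20236 probes with a symbol, 17238 symbols were current, 2899 were updated and 99 kept; 4224 probes had none. The script was tested on simulated data. Python 3.11.15, numpy 2.4.6, pandas 2.3.3 and matplotlib 3.10.9 did the rest.

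All members and probes are named; of each other list, up to 4 genes with the largest ratio on any array; and for each member at least 2-fold on an array, the 3 nearest genes. Members and lists were chosen with earlier results of these data known. Alternatives were background, offset, normalisation, filter, probe choice, the deposited values and, added after seeing the data, a mean control.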

Additional observations from a re-analysis of the deposited data

How the results depend on the processing

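Each comparison was recomputed under 10 alternative settings. With local background subtraction the counts of members at least 2-fold higher with TNF, lower with doxycycline, lower with both and lower with both than with TNF each went from 1 (MUC2) to 0, and the MUC2 ratio with both turned from -1.48 to 0.0054. The local background was 79.5 to 96.6% of the MUC2 spot, and whether it holds spot signal was not tested. With the authors' deposited values, which carry no added constant, the count lower with TNF went from 0 to 1 (MUC12) and the count higher with both than with TNF from 1 to 2 (MUC12 and MUC13). The other counts kept their value. Of the single gene values, 24 had the other sign under an alternative. One of these was at least 2-fold in the main setting (MUC2 with both), and 23 were under 2-fold there, among them MUC2 with both over doxycycline, which ran from -0.65 to 0.50. For MUC2 and MUC13, each with 1 probe, 4 of the 10 settings return the main value by construction. Of the 6 that can change it, local background was the exception to the MUC2 calls, with ranges of 0.50 to 1.76 with TNF, -3.39 to -0.49 with doxycycline, -4.05 to 0.01 with both and -5.81 to -0.49 with both over TNF. MUC13 with both was at least 2-fold under those 6. Median centring in place of loess moved the median of all genes from 0.01 to 0.14 with doxycycline and from 0.00 to 0.13 with both. Over all genes, the counts higher and lower with TNF were 262 and 1790, and 761 and 1804 with median centring, 1937 and 3059 in the authors' deposited values, 513 and 1602 against the mean control, 431 and 2481 at offset 16 and 275 and 1181 with local background. With doxycycline 171 and 59 became 540 and 19, 537 and 203 in the deposited values and 244 and 101 at offset 16. With both, 460 and 310 became 965 and 135, 1214 and 785, and 661 and 469, and 369 and 192 with local background. With both over doxycycline, 172 and 132 became 568 and 494 in the deposited values, 258 and 218 at offset 16, 166 and 194 with local background and 142 and 82 with no subtraction. With both over TNF, 2036 and 478 became 3424 and 2062 in the deposited values and 1791 and 915 against the mean control. No paired analysis was possible because each condition had 1 replicate.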
